A study of Homo sapiens with 14 samples.

Results

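NRAS, HRAS, BRAF, ARAF, MAP2K1, MAP2K2 and MAPK3 are genes of the RAS, RAF, MEK and ERK cascade. They were taken by symbol, matched to the Ensembl identifiers of the count table, and make up 7 of its 18006 genes. All 7 passed the filter on low counts, which left 12080 genes to test. RNA was sequenced from HEK 293 cells, an established human embryonic kidney line transformed with adenovirus DNA, in 14 libraries. The groups were CFIm25 knockdown (n = 2), CFIm68 knockdown (n = 3), CFIm25 overexpression (n = 3), CFIm68 overexpression (n = 3) and control (n = 3). Knockdown was by siRNA delivered with Lipofectamine RNAiMAX. The control libraries carry the genotype label wild type, and the labels do not say what, if anything, these cells were transfected with. CFIm25 (gene NUDT21) and CFIm68 (gene CPSF6) are subunits of cleavage factor I, a complex that binds UGUA in pre-mRNA and takes part in the choice of polyadenylation site. The labels do not state whether libraries of 1 group are separate cultures, so the p-values reflect spread between libraries that may be technical.

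RAS proteins are membrane-bound GTPases that switch on when growth factor receptors recruit exchange factors such as SOS1. GTP-bound RAS brings RAF kinases to the membrane, RAF phosphorylates the MEK kinases encoded by MAP2K1 and MAP2K2, and MEK phosphorylates the ERK kinases, of which MAPK3 encodes ERK1. Active ERK then phosphorylates cytoplasmic kinases and transcription factors, and induces inhibitors that act back on the cascade.

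The annotated 3′ untranslated regions (3′ UTRs) are shown because cleavage factor I binds UGUA, written TGTA in DNA letters. In the principal GENCODE 29 transcripts, TGTA occurred 25 times in the 3625-base 3′ UTR of NRAS, 17 times in the 3932 bases of BRAF and 11 times in the 1697 bases of MAP2K1. The 3′ UTRs of HRAS (394 bases), ARAF (443), MAP2K2 (277) and MAPK3 (636) had 0. Only the transcript strand was searched. Of 11821 tested genes with an annotated 3′ UTR, 13.5% had no TGTA, and of the 2237 whose 3′ UTR was as long as those of the 4 members without it, 20.3% had none. The 30 bases around the last TGTA, in capitals, were:
NRAS: ttgattattttatTGTAaattaatccaacc
BRAF: ttatcaaattctaTGTAtaatgcccattaa
MAP2K1: tgtgaatagatccTGTAtattcctttgatc
These motifs began 102, 198 and 513 bases before the annotated transcript end. In the last 100 bases TGTA was thus found in 0 of 7 members, against 55.4% of 11344 tested genes with a 3′ UTR of that length or more. The same 3 members held the polyadenylation signal AATAAA in their last 50 bases, as did 64.2% of those genes. It is in capitals here, with MAP2K1 also holding the variant ATTAAA nearer its end:
NRAS: tgatgtttaaaaAATAAAaactggaagttc
BRAF: gctctattcctaAATAAAgttaacttgaaa
MAP2K1: tatatatttataAATAAAaggcccattcct
MAP2K1, ATTAAA: ataaaaggcccattcctttttagATTAAAa
HRAS, ARAF, MAP2K2 and MAPK3 had neither hexamer there. A motif match is a description of the annotated sequence. Counts per gene do not show which polyadenylation site was used.

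Library totals ran from 15822467 to 33895308 counts, and values below are CPM, read counts scaled to a common library size with trimmed-mean (TMM) factors. Within a library the members had between 382 (BRAF) and 12797 (NRAS) counts. The targeted genes followed the labels. NUDT21 averaged 53.8 CPM with CFIm25 knockdown and 729 CPM with CFIm25 overexpression, against 514 CPM in control. CPSF6 averaged 41.6 CPM with CFIm68 knockdown and 730 CPM with CFIm68 overexpression, against 268 CPM in control. The other subunit changed in 3 of the 4 groups. CPSF6 averaged 533 CPM with CFIm25 knockdown, and 252 CPM with CFIm25 overexpression, which did not pass (adjusted p = 0.12). NUDT21 averaged 232 CPM with CFIm68 knockdown and 597 CPM with CFIm68 overexpression. Of 7 genes that mark HEK 293 cells all were tested, with summed levels of 324 to 437 CPM across libraries. Summed blood-cell markers reached at most 2.07 CPM with PTPRC at 0. Summed fibroblast markers were 52.8 to 57.5 CPM with CFIm25 knockdown, 65.5 to 68.2 CPM with CFIm68 knockdown, 46.4 to 53.7 CPM with CFIm25 overexpression, 24.9 to 28.4 CPM with CFIm68 overexpression and 50.5 to 54.8 CPM in control. Most of that sum was COL1A1, at 26.8 CPM with CFIm68 overexpression and 49.2 CPM in control, while COL1A2 and DCN were at 0. Summed keratinocyte markers were 102 to 110 CPM with CFIm68 knockdown, 66.4 to 72 CPM in control, and between 69.9 and 87.6 CPM in the other groups. Their part in the results was not tested, and in bulk RNA a change in cell numbers cannot be told apart from a change in RNA per cell.

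BRAF had the largest change of the 7 members with either knockdown, 1.75-fold higher with CFIm25 knockdown and 2.15-fold higher with CFIm68 knockdown. HRAS and MAPK3, both lower, changed most with CFIm25 overexpression. MAP2K1 did not pass the threshold against control in any group. Each comparison was tested with edgeR's quasi-likelihood test over all 12080 genes, with Benjamini-Hochberg adjustment and a threshold of 0.05. The comparisons with control share the same 3 control libraries.

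**Figure D1:**
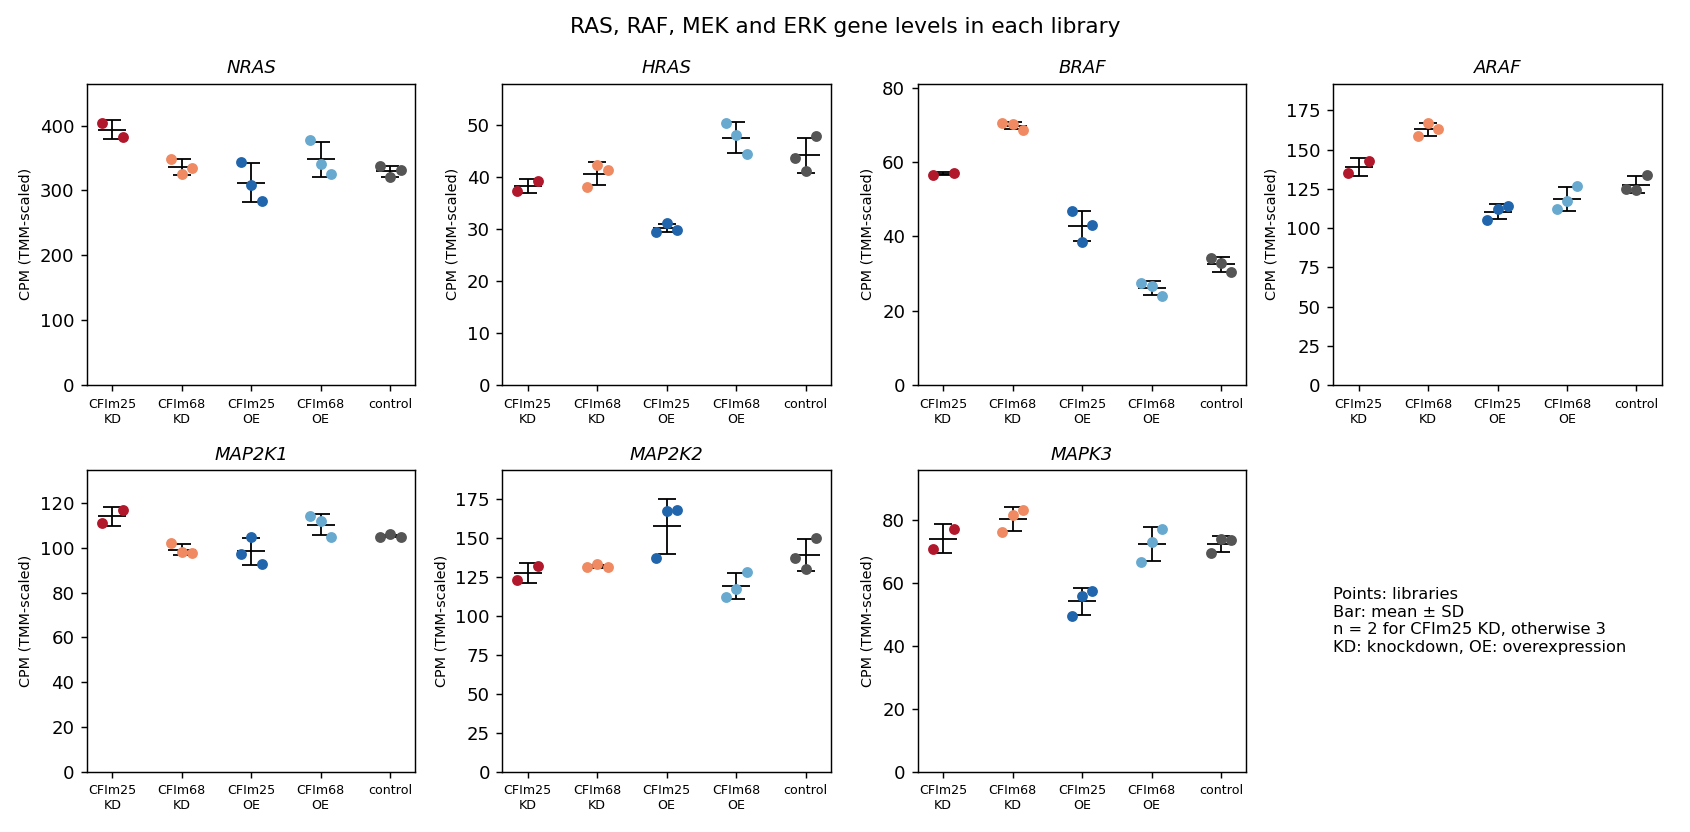
Level of each member in each library (points, CPM on the vertical axis) by group, with the group mean and SD (bars). BRAF separates the 5 groups without overlap, from 24 to 27.5 CPM with CFIm68 overexpression to 68.7 to 70.5 CPM with CFIm68 knockdown, while MAP2K1 stays between 92.9 and 117 CPM.

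With CFIm25 knockdown 2 members rose, NRAS and BRAF, and 1 fell, HRAS. Across all tested genes 47.6% passed, 24.4% higher and 23.2% lower. With CFIm68 knockdown 3 members rose (BRAF, ARAF, MAPK3) and 0 fell, where 56.4% of all genes passed, 28.3% higher and 28.1% lower. With CFIm25 overexpression 2 members rose (BRAF, MAP2K2) and 3 fell (HRAS, ARAF, MAPK3), where 56.7% of all genes passed, 27.7% higher and 29.1% lower. With CFIm68 overexpression 0 rose and 2 fell (BRAF, MAP2K2), where 29.8% of all genes passed, 14.5% higher and 15.4% lower. The shares of members called are near those of all genes at this number of members. The median log2 change of the members was 0.12 with CFIm25 knockdown, 0.03 with CFIm68 knockdown, -0.09 with CFIm25 overexpression and 0.00 with CFIm68 overexpression, and the median over all genes was between 0.00 and 0.01.

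NRAS (ENSG00000213281, chromosome 1, 114704469 to 114716894 on hg38, minus strand) encodes one of the RAS GTPases. It measured 404 and 383 CPM with CFIm25 knockdown, 349, 325 and 335 CPM with CFIm68 knockdown, 344, 308 and 284 CPM with CFIm25 overexpression, 378, 341 and 325 CPM with CFIm68 overexpression, and 337, 320 and 332 CPM in control. Both CFIm25 knockdown libraries lay above all the others, and the remaining groups overlapped. NRAS rose with CFIm25 knockdown by 0.25 ± 0.07 on the log2 scale (SE, adjusted p = 0.0023). After the median change of the 50 neighbouring genes on its chromosome was removed, the change was 0.15 with an adjusted p of 0.061. The changes in the other groups did not pass, at 0.03 with CFIm68 knockdown, -0.08 with CFIm25 overexpression and 0.08 with CFIm68 overexpression. Without 1 library the CFIm25 overexpression value ranged from -0.14 to -0.01, and it passed without CFIm25 overexpression replicate 1 (adjusted p = 0.034). The CFIm68 overexpression value ranged from 0.01 to 0.12 and did not pass.

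HRAS (ENSG00000174775, chromosome 11, 532242 to 537287, minus strand), a second RAS GTPase, measured 37.3 and 39.2 CPM with CFIm25 knockdown, 38.1, 42.3 and 41.4 CPM with CFIm68 knockdown, 29.5, 31.1 and 29.9 CPM with CFIm25 overexpression, 50.4, 48 and 44.4 CPM with CFIm68 overexpression, and 43.6, 41.1 and 47.8 CPM in control. The 3 CFIm25 overexpression libraries were the lowest, with no overlap with any other group. HRAS fell with CFIm25 overexpression by 0.55 ± 0.07 on the log2 scale (adjusted p = 1.61e-07), or 1.47-fold. The median of its neighbouring genes was -0.35 there, and after its removal HRAS was at -0.20 (adjusted p = 0.019). The decrease with CFIm25 knockdown, -0.21 ± 0.08 (adjusted p = 0.025), did not pass without control replicate 3 (adjusted p = 0.13) or without CFIm25 knockdown replicate 1 (0.16) or 2 (0.055), and was 0.03 with the neighbours' median removed. With CFIm68 knockdown the change was -0.12 and with CFIm68 overexpression 0.11, neither past the threshold.

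BRAF (ENSG00000157764, chromosome 7, 140719327 to 140924928, minus strand) encodes the RAF kinase with the highest basal activity. It measured 56.6 and 57.1 CPM with CFIm25 knockdown, 70.5, 70.2 and 68.7 CPM with CFIm68 knockdown, 46.8, 38.6 and 43.1 CPM with CFIm25 overexpression, 27.5, 26.6 and 24 CPM with CFIm68 overexpression, and 34.1, 32.9 and 30.3 CPM in control. In order of level CFIm68 knockdown came first, then CFIm25 knockdown, CFIm25 overexpression, control and CFIm68 overexpression, and no neighbours in that order overlapped. Group means were 56.9 ± 0.37 CPM with CFIm25 knockdown (SD, n = 2) and 69.8 ± 0.938 CPM with CFIm68 knockdown (n = 3), against 32.5 ± 1.98 CPM in control (n = 3). The log2 change was 0.81 ± 0.08 with CFIm25 knockdown (adjusted p = 1.43e-09) and 1.11 ± 0.07 with CFIm68 knockdown (adjusted p = 1.16e-13). Of all tested genes 96.7% had a lower log2 change than BRAF with CFIm25 knockdown, and 97.8% with CFIm68 knockdown. BRAF also rose with CFIm25 overexpression, by 0.40 ± 0.07 (adjusted p = 2.40e-05), and fell with CFIm68 overexpression, by 0.32 ± 0.08 (adjusted p = 0.0022).

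The medians of the 50 genes around BRAF were 0.19, 0.17, 0.22 and -0.19 in the same order of groups. After their removal BRAF was at 0.62 with CFIm25 knockdown and 0.94 with CFIm68 knockdown, both past the threshold, at 0.18 with CFIm25 overexpression (adjusted p = 0.035) and at -0.13 with CFIm68 overexpression (adjusted p = 0.26). Its annotated exons share 1239 bases with NDUFB2 on the opposite strand. NDUFB2, a subunit of respiratory complex I, changed by 0.38, 0.52, -0.25 and -0.25 in that order. It moved in the direction of BRAF with both knockdowns and CFIm68 overexpression, and in the opposite direction with CFIm25 overexpression. Its part in the BRAF values was not tested. No source used here gives the strand setting of the counting, so reads of the shared bases cannot be assigned.

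ARAF (ENSG00000078061, chromosome X, 47561100 to 47571920, plus strand), a RAF kinase with low basal activity, measured 135 and 143 CPM with CFIm25 knockdown, 159, 167 and 163 CPM with CFIm68 knockdown, 105, 112 and 114 CPM with CFIm25 overexpression, 112, 117 and 127 CPM with CFIm68 overexpression, and 125, 124 and 134 CPM in control. The CFIm68 knockdown libraries stood above all others, and the CFIm25 overexpression libraries below those of control. ARAF rose with CFIm68 knockdown by 0.35 ± 0.05 (adjusted p = 2.77e-06) and fell with CFIm25 overexpression by 0.21 ± 0.06 (adjusted p = 0.0024). The CFIm25 knockdown value, 0.13 ± 0.06, had an adjusted p of 0.079 although its libraries did not overlap with control. It passed with a block for replicate number (0.15), without control replicate 3 (0.17) and with the neighbours' median removed (0.15, adjusted p = 0.039). The CFIm68 overexpression value was -0.10 (adjusted p = 0.17).

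**Figure D2:**
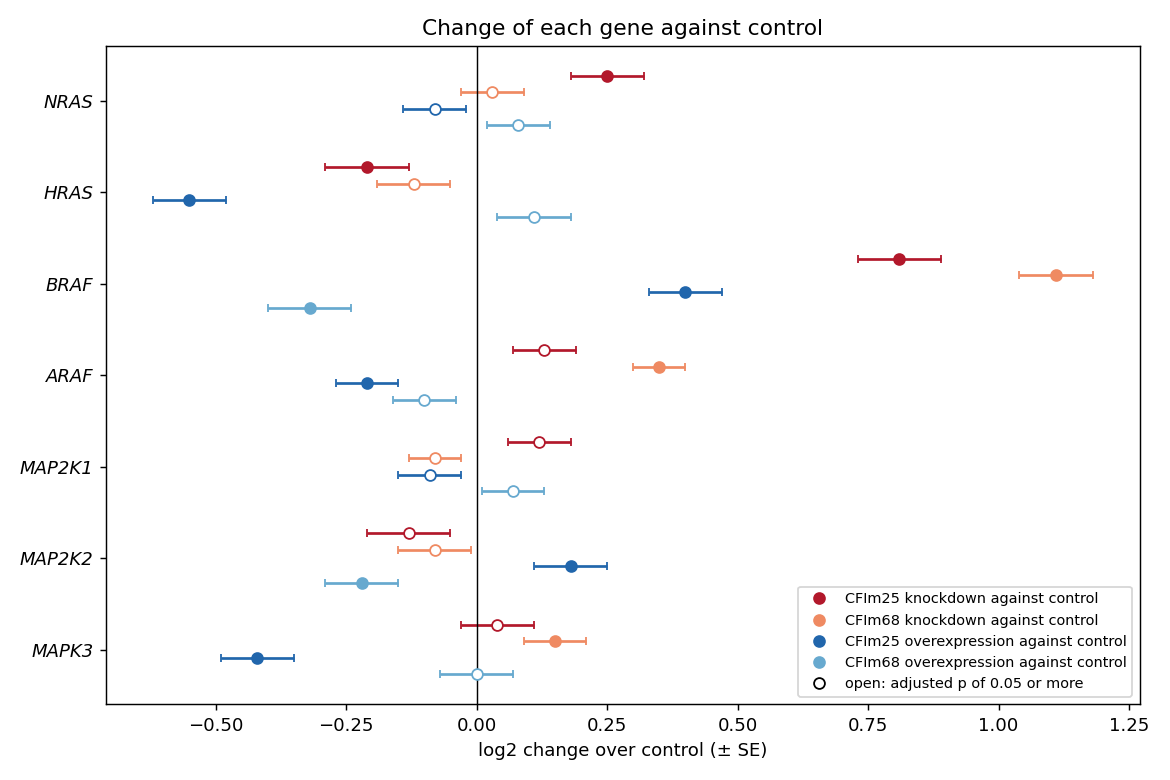
Log2 change against control of each member (points) with its standard error (bars) in the 4 perturbed groups. BRAF lies furthest from 0 with both knockdowns, at 0.81 and 1.11, and HRAS with CFIm25 overexpression, at -0.55.

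MAP2K1 (ENSG00000169032, chromosome 15, 66386817 to 66492312, plus strand) encodes MEK1. It measured 111 and 117 CPM with CFIm25 knockdown, 102, 97.9 and 97.6 CPM with CFIm68 knockdown, 97.3, 105 and 92.9 CPM with CFIm25 overexpression, 114, 112 and 105 CPM with CFIm68 overexpression, and 105, 106 and 105 CPM in control. The control libraries agreed closely (105 ± 0.546 CPM, SD, n = 3), with CFIm25 knockdown above and CFIm68 knockdown below them. The log2 changes were 0.12, -0.08, -0.09 and 0.07 for CFIm25 knockdown, CFIm68 knockdown, CFIm25 overexpression and CFIm68 overexpression, with adjusted p-values of 0.11, 0.2, 0.15 and 0.34. With neighbours' medians removed the CFIm68 knockdown value was -0.13 (adjusted p = 0.047) and the CFIm25 overexpression value -0.22 (adjusted p = 0.0016). The CFIm25 overexpression value was -0.14 (adjusted p = 0.04) without CFIm25 overexpression replicate 2, and ranged from -0.14 to -0.05 with 1 library left out. Its exons share 648 bases with opposite-strand genes, one of them SNAPC5, which was at -0.23, -0.26, -0.20 and 0.23.

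MAP2K2 (ENSG00000126934, chromosome 19, 4090321 to 4124129, minus strand) encodes MEK2. It measured 123 and 132 CPM with CFIm25 knockdown, 131, 133 and 131 CPM with CFIm68 knockdown, 137, 167 and 168 CPM with CFIm25 overexpression, 112, 117 and 128 CPM with CFIm68 overexpression, and 137, 130 and 150 CPM in control. One CFIm25 overexpression library lay within the control range and the others above it, while the 3 CFIm68 overexpression libraries lay below it. MAP2K2 rose with CFIm25 overexpression by 0.18 ± 0.07 (adjusted p = 0.026) and fell with CFIm68 overexpression by 0.22 ± 0.07 (adjusted p = 0.014). Both calls depended on which libraries were kept. The CFIm25 overexpression call was lost without control replicate 1 (adjusted p = 0.072) or 2 (0.14) or without CFIm25 overexpression replicate 2 or 3 (0.13 each). The CFIm68 overexpression call was lost without control replicate 3 (0.1) or CFIm68 overexpression replicate 1 (0.07) or 2 (0.057). With neighbours' medians removed they were 0.13 and -0.05, neither past the threshold. The values for CFIm25 knockdown (-0.13) and CFIm68 knockdown (-0.08) did not pass, but with neighbours' medians removed they were -0.20 (adjusted p = 0.035) and -0.24 (adjusted p = 0.004).

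MAPK3 (ENSG00000102882, chromosome 16, 30114105 to 30123506, minus strand) encodes ERK1. It measured 70.7 and 77.2 CPM with CFIm25 knockdown, 76, 81.6 and 83.2 CPM with CFIm68 knockdown, 49.3, 55.8 and 57.4 CPM with CFIm25 overexpression, 66.7, 73 and 77.2 CPM with CFIm68 overexpression, and 69.3, 73.9 and 73.5 CPM in control. The CFIm25 overexpression libraries were below all the others. MAPK3 fell there by 0.42 ± 0.07 (adjusted p = 5.24e-06), and after removal of the neighbours' median of -0.27 it was at -0.15 (adjusted p = 0.067). With CFIm68 knockdown it was higher by 0.15 ± 0.06 (adjusted p = 0.046), and 6 of 14 alternative fits kept the call. Among those that lost it were DESeq2 (0.057) and the fits without any 1 control library or CFIm68 knockdown replicate 2 or 3 (0.06 to 0.19). With the neighbours' median removed the CFIm68 knockdown value was 0.27 (adjusted p = 0.00069). The values with CFIm25 knockdown (0.04) and CFIm68 overexpression (0.00) did not pass, but the CFIm25 knockdown value was 0.29 (adjusted p = 0.0017) after that removal and -0.03 without CFIm25 knockdown replicate 2.

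The knockdowns and the overexpressions were then compared with each other. The control means do not enter these differences, but the control libraries do enter the scaling and the estimate of spread. Between CFIm68 knockdown and CFIm25 knockdown 4 of 7 members differed, 2 higher and 2 lower, where 24.2% of all genes passed, 11.1% higher and 13.2% lower. BRAF and ARAF were higher with CFIm68 knockdown, by 0.30 ± 0.07 (adjusted p = 0.0029) and 0.22 ± 0.06 (adjusted p = 0.0064). NRAS and MAP2K1 were lower with CFIm68 knockdown, at -0.23 (adjusted p = 0.012) and -0.20 (adjusted p = 0.013). The BRAF call held without each library in turn. The ARAF call was lost without CFIm25 knockdown replicate 1 (adjusted p = 0.12), and the NRAS call without that library (0.16) or CFIm68 knockdown replicate 2 (0.06). The MAP2K1 call was lost without CFIm25 knockdown replicate 2 (0.16) or CFIm68 knockdown replicate 2 (0.053) or 3 (0.057).

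Between CFIm68 overexpression and CFIm25 overexpression 6 of 7 members differed, 4 higher and 2 lower, where 63.7% of all genes passed, 32.9% higher and 30.8% lower. HRAS and MAPK3 were higher with CFIm68 overexpression, by 0.66 ± 0.07 (adjusted p = 3.80e-09) and 0.42 ± 0.07 (adjusted p = 3.71e-06). NRAS and MAP2K1 were also higher, by 0.15 (adjusted p = 0.026) and 0.17 (adjusted p = 0.01), with overlapping libraries. BRAF was lower with CFIm68 overexpression, at -0.72 ± 0.07 (adjusted p = 1.83e-09), and so was MAP2K2, at -0.40 ± 0.07 (adjusted p = 9.34e-06). ARAF, at 0.10, did not pass (adjusted p = 0.11), but did without CFIm68 overexpression replicate 1, at 0.14 (adjusted p = 0.038). With neighbours' medians removed HRAS was at 0.17 (adjusted p = 0.044), BRAF at -0.34 (adjusted p = 0.00027), MAP2K2 at -0.23 (adjusted p = 0.0048), MAPK3 at 0.10 (adjusted p = 0.22) and NRAS at 0.12 (adjusted p = 0.081). In a fit of the compared groups alone NRAS (adjusted p = 0.1) and MAP2K1 (0.065) did not pass, and without CFIm25 overexpression replicate 3 they were at 0.09 and 0.12 and did not pass either. The NRAS call was also lost without CFIm25 overexpression replicate 2 (0.083) or CFIm68 overexpression replicate 1 (0.2).

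Opposite changes of the same subunit were compared directly too. CFIm25 knockdown against CFIm25 overexpression gave calls for 7 of 7 members, 6 higher and 1 lower, where 56.1% of all genes passed, 28.6% higher and 27.5% lower. The higher ones were NRAS at 0.33, HRAS at 0.35, BRAF at 0.41, ARAF at 0.34, MAP2K1 at 0.21 and MAPK3 at 0.46, and MAP2K2 was lower at -0.31. The MAP2K1 call was lost without CFIm25 knockdown replicate 2 (adjusted p = 0.069). CFIm68 knockdown against CFIm68 overexpression gave 3 higher and 2 lower, where 67.1% of all genes passed, 33.7% higher and 33.5% lower. BRAF was higher with CFIm68 knockdown by 1.42 ± 0.07 (adjusted p = 3.27e-16), a 2.68-fold difference, ARAF by 0.46 and MAPK3 by 0.15 (adjusted p = 0.042). HRAS was lower at -0.23 and MAP2K1 at -0.15, and NRAS (-0.05) and MAP2K2 (0.14) did not pass. HRAS was at 0.15 (adjusted p = 0.047), the opposite direction, with neighbours' medians removed, and MAPK3 at 0.37 (adjusted p = 1.2e-05). The MAPK3 call was lost without CFIm68 knockdown replicate 2 or 3 or CFIm68 overexpression replicate 1 or 2, and the MAP2K1 call without CFIm68 knockdown replicate 3 or CFIm68 overexpression replicate 1. MAP2K2 passed without CFIm68 overexpression replicate 3, at 0.20 (adjusted p = 0.02), with no filter on low counts (0.018) and in a fit of the compared groups alone (0.014).

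**Figure D3:**
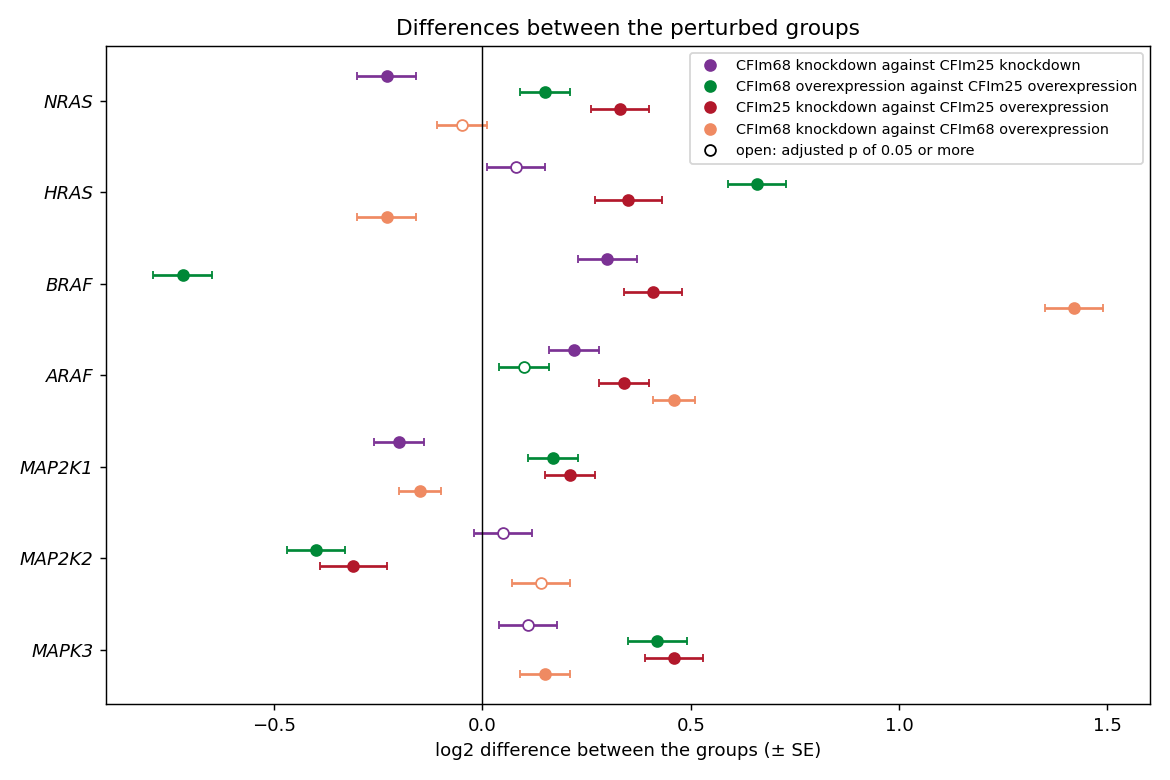
Log2 difference of each member between perturbed groups (points) with its standard error (bars), in 4 comparisons whose differences hold no control mean. BRAF spans the widest range, from -0.72 between the overexpressions to 1.42 between CFIm68 knockdown and CFIm68 overexpression.

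Ratios of members of the same tier show how the balance between paralogues shifted, since normalisation cancels in them. The ratio of BRAF to ARAF was 0.418 and 0.399 with CFIm25 knockdown, 0.443, 0.421 and 0.421 with CFIm68 knockdown, 0.444, 0.343 and 0.378 with CFIm25 overexpression, 0.246, 0.226 and 0.189 with CFIm68 overexpression, and 0.274, 0.266 and 0.226 in control. All 5 knockdown libraries lay above every control library, as did the 3 with CFIm25 overexpression, while those with CFIm68 overexpression overlapped with control. The mean log2 ratio was -1.25 in the knockdown libraries and -1.97 in control, a difference of 0.72. An exact two-sided permutation test gave p = 0.0179, the smallest that 5 against 3 libraries allow, and 0.107 after Benjamini-Hochberg adjustment over 6 ratio tests.

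The ratio of NRAS to HRAS averaged 10.3 ± 0.747 with CFIm25 knockdown (SD, n = 2), 8.31 ± 0.763 with CFIm68 knockdown, 10.4 ± 1.14 with CFIm25 overexpression, 7.3 ± 0.19 with CFIm68 overexpression and 7.49 ± 0.472 in control (n = 3 each). The ratio of MAP2K1 to MAP2K2 averaged 0.897 ± 0.0116, 0.753 ± 0.0255, 0.63 ± 0.0788, 0.932 ± 0.101 and 0.758 ± 0.0579 in the same order. Across both knockdowns the log2 ratio of NRAS to HRAS differed from control by 0.27 (exact permutation p = 0.0893, adjusted 0.268) and that of MAP2K1 to MAP2K2 by 0.09 (exact permutation p = 0.357, adjusted 0.536). Across both overexpressions, where the smallest possible p is 0.0119, the differences were 0.19 for BRAF to ARAF, 0.22 for NRAS to HRAS and 0.01 for MAP2K1 to MAP2K2, with exact permutation p-values of 0.524, 0.333 and 0.964. None of the 6 tests passed the threshold after adjustment. Over 6 tests a single ratio at the smallest possible p cannot pass alone, so failing says little about that ratio. The overexpression tests also pooled groups whose mean ratios lay on opposite sides of control. For BRAF to ARAF the means were 0.388 with CFIm25 overexpression and 0.22 with CFIm68 overexpression, against 0.255 in control.

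**Figure D4:**
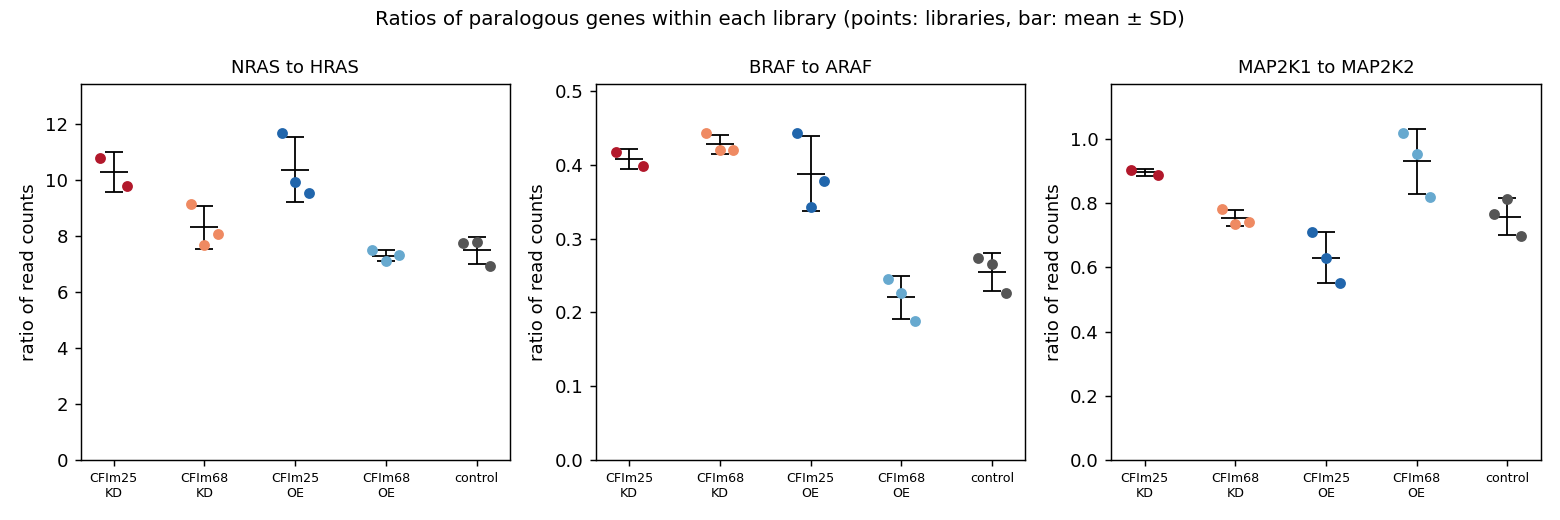
Ratio of CPM between members of the same tier in each library (points), by group, for BRAF to ARAF, NRAS to HRAS and MAP2K1 to MAP2K2. The BRAF to ARAF ratio is 0.399 to 0.443 in the knockdown libraries and 0.226 to 0.274 in control.

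Levels were compared between members per kilobase of annotated exon. In control NRAS had 74.1 ± 2.03 CPM per kb (SD, n = 3), ARAF 36.1 ± 1.56, MAP2K1 28 ± 0.145, MAP2K2 26.6 ± 1.94, HRAS 23.8 ± 1.82, MAPK3 19.7 ± 0.703 and BRAF 1.39 ± 0.0845. NRAS was thus the most abundant of the 7 and BRAF the least on this scale. BRAF has 23432 bases of annotated exon but 2678 bases of coding sequence, and per kilobase of coding sequence it had 12.1 CPM, still the lowest, with NRAS the highest at 582 CPM. The order between them changed with the length used, and MAP2K2 (116 CPM per kb of coding sequence) then came second.

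Of 135 other genes of the pathway in 10 lists, 129 were in the table and 114 were tested. A further 14 in the table were at 0 in every library, among them the receptor genes FGFR1, ERBB2, ERBB3, IGF1R and MET, and why they are listed at 0 is not known. Among the 114, 36 rose and 26 fell with CFIm25 knockdown, 46 rose and 31 fell with CFIm68 knockdown, 31 rose and 36 fell with CFIm25 overexpression, and 21 rose and 18 fell with CFIm68 overexpression. That is 54.4% of them with CFIm25 knockdown, 67.5% with CFIm68 knockdown, 58.8% with CFIm25 overexpression and 34.2% with CFIm68 overexpression, beside 47.6%, 56.4%, 56.7% and 29.8% of all tested genes. Without CFIm25 knockdown replicate 2, 20 rose with CFIm25 knockdown, and the number that fell with CFIm68 overexpression was as low as 9 when 1 library was left out. The list medians were 0.03, 0.07, -0.01 and -0.02 on the log2 scale. The counts of each list below are to be read beside the shares of all tested genes. These were 24.4% higher and 23.2% lower with CFIm25 knockdown, and 28.3% and 28.1% with CFIm68 knockdown. They were 27.7% and 29.1% with CFIm25 overexpression, and 14.5% and 15.4% with CFIm68 overexpression.

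Receptors and adaptors stand upstream of RAS. Of 6 tested receptor genes 1 rose and 2 fell with CFIm25 knockdown, 2 rose and 2 fell with CFIm68 knockdown, 1 rose and 2 fell with CFIm25 overexpression, and 1 rose and 1 fell with CFIm68 overexpression. EPHA2, an ephrin receptor, averaged 56.9 CPM with CFIm25 knockdown, 46.2 CPM with CFIm68 knockdown, 73.8 CPM with CFIm25 overexpression and 112 CPM with CFIm68 overexpression, against 73.2 CPM in control. It fell with both knockdowns (-0.36 and -0.66) and rose with CFIm68 overexpression (0.62 ± 0.06, adjusted p = 1.33e-08). Of 16 adaptors and exchange factors 2 rose and 6 fell with CFIm25 knockdown, 4 rose and 7 fell with CFIm68 knockdown, 5 rose and 4 fell with CFIm25 overexpression, and 3 rose and 3 fell with CFIm68 overexpression. IRS1, an insulin receptor adaptor, fell to 4.9 CPM with CFIm25 knockdown, 4.65 CPM with CFIm68 knockdown and 7.18 CPM with CFIm25 overexpression, against 11.2 CPM in control. With CFIm68 overexpression it was at 12.7 CPM (adjusted p = 0.21). SOS1, the exchange factor that loads RAS with GTP, fell with CFIm25 knockdown (-0.37), CFIm68 knockdown (-0.30) and CFIm68 overexpression (-0.20, adjusted p = 0.0073), and rose with CFIm25 overexpression (0.38, adjusted p = 2.00e-06). The CFIm68 overexpression value was 0.02 with neighbours' medians removed, and its adjusted p was 0.053 without control replicate 1 and 0.058 without CFIm68 overexpression replicate 3.

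Genes acting on RAS itself moved both ways. Of 7 GTPase-activating proteins, which switch RAS off, 3 rose and 0 fell with CFIm25 knockdown, 3 rose and 2 fell with CFIm68 knockdown, 1 rose and 1 fell with CFIm25 overexpression, and 1 rose and 2 fell with CFIm68 overexpression. RASA2 rose to 42.4 CPM with CFIm25 knockdown and 51.1 CPM with CFIm68 knockdown, against 30.2 CPM in control. It was at 32.6 CPM with CFIm25 overexpression (adjusted p = 0.18) and 24.5 CPM with CFIm68 overexpression, a change of -0.30 (adjusted p = 0.0028) that was -0.09 (adjusted p = 0.46) with neighbours' medians removed. RASA3 averaged 12.9 CPM with CFIm68 knockdown and 42.4 CPM with CFIm68 overexpression, against 28.1 CPM in control, with log2 changes of -1.12 ± 0.08 (adjusted p = 5.09e-12) and 0.59 ± 0.08 (adjusted p = 1.26e-06). Its values with CFIm25 knockdown (0.08) and CFIm25 overexpression (0.17) did not pass. Of 8 genes for RAS processing and turnover 3 rose and 3 fell, 3 rose and 2 fell, 0 rose and 3 fell, and 1 rose and 2 fell in the same order of groups. ZDHHC9, which palmitoylates HRAS and NRAS, rose with CFIm68 knockdown by 0.41 ± 0.05 (adjusted p = 1.17e-07) and with CFIm25 knockdown by 0.17 (adjusted p = 0.017), the second lost without control replicate 1 (0.079) or CFIm25 knockdown replicate 2 (0.22). With CFIm25 overexpression (-0.01) and CFIm68 overexpression (-0.05) it did not pass. ICMT, which methylates the RAS C-terminus, fell with CFIm25 overexpression by 0.30 ± 0.05 (adjusted p = 7.08e-06) and with CFIm68 knockdown by 0.24, and was at -0.13 with CFIm25 knockdown (adjusted p = 0.054). It rose with CFIm68 overexpression by 0.21 (adjusted p = 0.0018), or 0.12 (adjusted p = 0.088) with neighbours' medians removed.

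Of 9 related small GTPases 6 rose and 0 fell with CFIm25 knockdown, 7 rose and 0 fell with CFIm68 knockdown, 2 rose and 1 fell with CFIm25 overexpression, and 0 rose and 0 fell with CFIm68 overexpression. Of all tested genes 24.4% rose and 23.2% fell with CFIm25 knockdown, and 28.3% rose and 28.1% fell with CFIm68 knockdown. The median log2 changes of the 9 were 0.33, 0.31, 0.01 and -0.08. RIT1, a RAS-like GTPase, averaged 18.5 CPM with CFIm68 knockdown and 9.34 CPM in control, a change of 0.98 ± 0.10 (adjusted p = 4.14e-09). With CFIm25 knockdown RIT1 was higher by 0.33 (adjusted p = 0.022), a call lost without control replicate 1 (0.094) or 2 (0.09) or CFIm25 knockdown replicate 2 (0.14). RRAS2 rose by 0.43 with CFIm25 knockdown and 0.52 with CFIm68 knockdown, and RALA by 0.39 and 0.41. None of these 3 genes passed with either overexpression, where they ranged from -0.16 to 0.06.

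Of 8 other kinases of the cascade 2 rose and 1 fell with CFIm25 knockdown, 5 rose and 1 fell with CFIm68 knockdown, 1 rose and 3 fell with CFIm25 overexpression, and 1 rose and 1 fell with CFIm68 overexpression. MAP2K5, a MEK of the ERK5 pathway, rose with CFIm25 overexpression by 0.55 ± 0.06 (adjusted p = 7.19e-09) and did not pass with CFIm25 knockdown (0.10), CFIm68 knockdown (-0.02) or CFIm68 overexpression (-0.05).

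Of 17 scaffolds and modulators 4 rose and 4 fell with CFIm25 knockdown, 6 rose and 8 fell with CFIm68 knockdown, 6 rose and 8 fell with CFIm25 overexpression, and 1 rose and 6 fell with CFIm68 overexpression. ERBIN, which binds the receptor ERBB2, fell by 0.65 with CFIm25 knockdown and by 0.67 with CFIm68 knockdown, and rose by 0.41 with CFIm25 overexpression. With CFIm68 overexpression it was at 0.02, which did not pass. Of 14 genes listed as feedback inhibitors 4 rose and 3 fell, 5 rose and 3 fell, 7 rose and 2 fell, and 4 rose and 2 fell in the same order. The list is not limited to genes induced by ERK, since it holds DUSP3, PPP2CA, PPP2R1A and PPP2R2A. With CFIm25 overexpression DUSP3, PPP2CA and PPP2R2A were among the 7 that rose, and PPP2R1A among the 2 that fell. DUSP6, a phosphatase of ERK, fell with CFIm25 knockdown by 0.69 ± 0.13 (adjusted p = 5.12e-05), at 5.48 CPM against 8.93 CPM in control. It was lower with CFIm68 knockdown (-0.35, adjusted p = 0.0087, or 0.057 without control replicate 3) and higher with CFIm25 overexpression (0.45) and CFIm68 overexpression (0.46). SPRY4, an inhibitor of receptor signalling, rose with CFIm68 overexpression by 1.04 ± 0.15 (adjusted p = 4.11e-06), at 6.07 CPM against 2.95 CPM in control. With CFIm68 knockdown SPRY4 was at -0.39 (adjusted p = 0.039), a call lost with DESeq2 (0.09), with no filter (0.07), and without control replicate 1 (0.1) or 2 (0.12) or CFIm68 knockdown replicate 2 (0.15) or 3 (0.058). It did not pass with CFIm25 knockdown (-0.42) or CFIm25 overexpression (0.10).

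Downstream of ERK, 9 of 16 ERK-activated kinases and ETS factors rose and 2 fell with CFIm25 knockdown, and the counts were the same with CFIm68 knockdown. That is 68.8% past the threshold with either knockdown, beside 47.6% and 56.4% of all tested genes. With CFIm25 overexpression 6 rose and 6 fell, and with CFIm68 overexpression 4 rose and 0 fell. ELK3, an ETS factor, averaged 10.8 CPM with CFIm68 knockdown and 26.1 CPM in control, a change of -1.27 ± 0.08 (adjusted p = 4.43e-13). It also fell with CFIm25 overexpression (-0.50), and did not pass with CFIm25 knockdown (-0.17) or CFIm68 overexpression (-0.02). ELK3 and RPS6KA3 were the 2 genes of the list that fell with CFIm68 knockdown. RPS6KA5, among the 9 that rose, was at 0.34 with CFIm25 knockdown and 0.64 with CFIm68 knockdown (adjusted p = 3.73e-08). It was at 0.45 with CFIm25 overexpression and at -0.20 with CFIm68 overexpression, which did not pass. RPS6KA3, a kinase activated by ERK, was at -0.49 with CFIm68 knockdown (adjusted p = 1.80e-08) and 0.47 with CFIm25 overexpression (adjusted p = 3.38e-08). It was at 0.22 with CFIm68 overexpression (adjusted p = 0.0035), or 0.12 (adjusted p = 0.14) with neighbours' medians removed. Its CFIm25 knockdown value of -0.15 (adjusted p = 0.045) did not pass without control replicate 1 or 2 or CFIm25 knockdown replicate 2. Of 13 transcriptional targets of ERK 2 rose and 5 fell with CFIm25 knockdown, 2 rose and 4 fell with CFIm68 knockdown, 2 rose and 6 fell with CFIm25 overexpression, and 5 rose and 1 fell with CFIm68 overexpression. PHLDA1 averaged 11.6 CPM with CFIm25 knockdown, which did not pass, 4.9 CPM with CFIm68 knockdown, 25.5 CPM with CFIm25 overexpression and 17.4 CPM with CFIm68 overexpression, against 11.5 CPM in control. FOSL1, an AP-1 subunit, fell with CFIm25 knockdown (-0.96 ± 0.22, adjusted p = 5.92e-04), CFIm68 knockdown (-0.65, adjusted p = 0.0041) and CFIm25 overexpression (-1.01, adjusted p = 1.67e-04), and rose with CFIm68 overexpression (0.90 ± 0.17, adjusted p = 1.50e-04). Its levels were 1.4, 1.76, 1.35 and 5.16 CPM, against 2.76 CPM in control. The list's median was 0.34 with CFIm68 overexpression and -0.31 with CFIm25 overexpression.

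**Figure D5:**
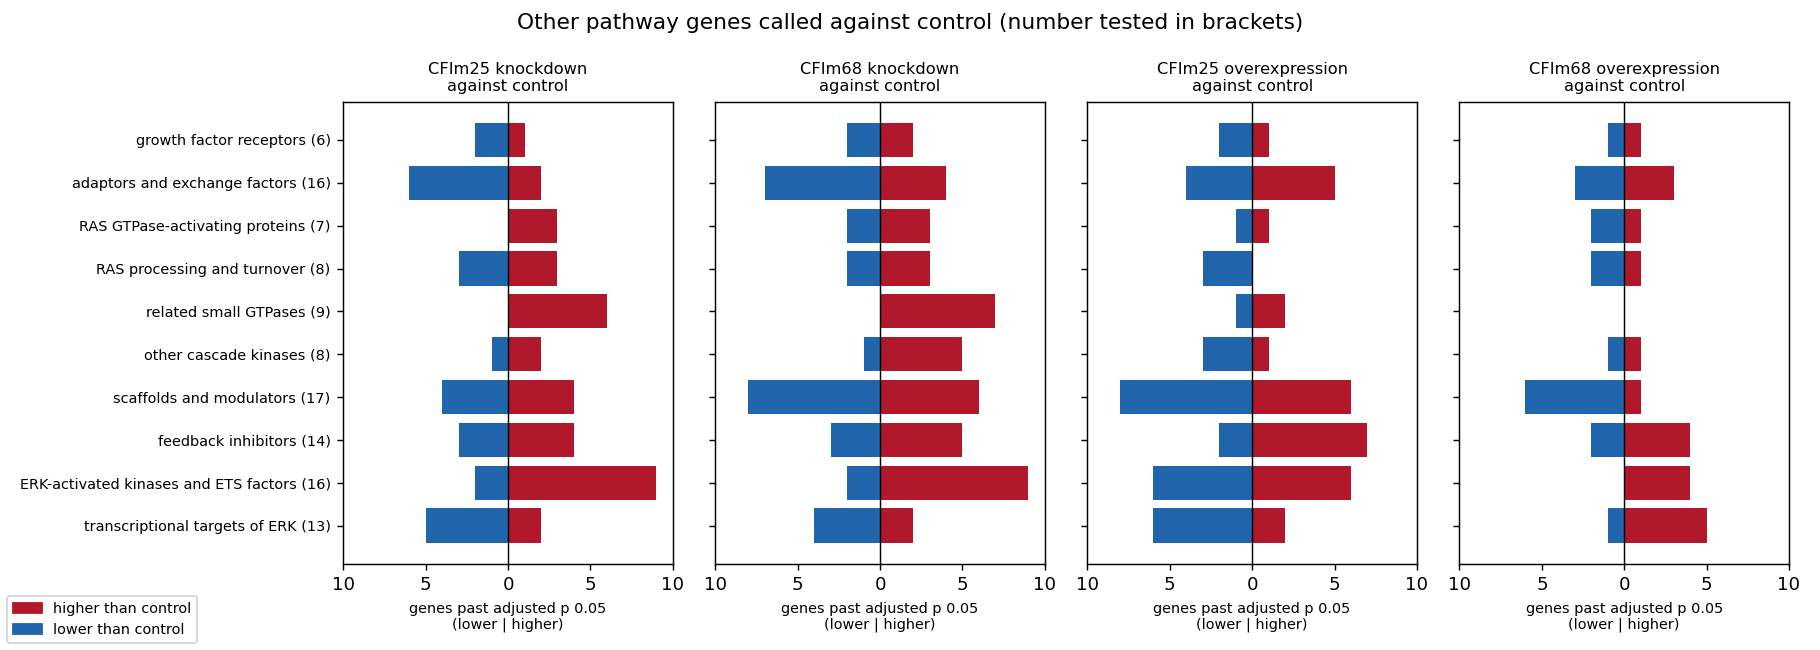
Number of other pathway genes in each list that were higher (right) or lower (left) than control past an adjusted p of 0.05, for the 4 perturbed groups, with the number tested in brackets. In the related small GTPases 6 of 9 genes are higher with CFIm25 knockdown and 7 with CFIm68 knockdown, beside 24.4% and 28.3% of all tested genes.

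For each member the genes with the most similar pattern were sought among 9355 genes of at least 5 CPM, by Pearson's r of log2 CPM over the 14 libraries, which share the same groups and control libraries. ITCH (r = 0.993) and RBM18 (0.987) were closest to BRAF, PLOD1 (0.983) and PIP5K1C (0.976) to ARAF, SYBU (0.978) and ZBTB22 (0.966) to HRAS, and SPART (0.952) and MMD (0.950) to NRAS. CERCAM (0.966) and WSB2 (0.964) were closest to MAPK3, and SIRT6 (0.928) and CD320 (0.927) to MAP2K2. For MAP2K1 the highest values were lower, with GLDC at 0.890 and EI24 at 0.888.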

How the data were processed

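RNA of HEK 293 cells was sequenced in 14 libraries, prepared with the TruSeq Stranded mRNA kit, per the labels' protocols. Groups came from the labels. The authors deposited raw read counts per gene. Their reads had been through cutadapt 1.16 and STAR 2.7.1a with the hg38 build, as the submitters' processing notes list them. No source used here names the counting tool, its annotation or whether it used strand.

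The counts were fitted in edgeR 4.0.16 (R 4.3.3) after filterByExpr with a minimum count of 10 and a minimum total of 15. The quasi-likelihood fit had a coefficient for each group over the 14 libraries, TMM scaling (factors 0.973 to 1.05) and Benjamini-Hochberg adjustment over 12080 genes. The common dispersion had a square root of 0.0501. The standard errors are derived from the quasi-likelihood statistic, and the test was checked on simulated counts. Libraries of a group differed by more than sampling noise, so each was counted as 1 replicate. Paralogue ratios of CPM were compared by exact permutation tests. Coordinates, exon lengths and 3′ UTRs (the longest among principal transcripts) are those of GENCODE 29 on hg38. Of 5 annotated pseudogenes of the members 0 were in the table.

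The members and the pathway lists were chosen with earlier results of these data known. Named are the 7 members, the 2 targeted genes, the 2 most similar genes per member, and a part of the pathway genes with the smallest adjusted p past the threshold, up to 3 per list and comparison. That part was chosen after its values were seen, and some genes under the rule are not reported here. The fit was repeated with median-ratio size factors, without a filter, with a filter of 1 CPM in 3 libraries, with a block for replicate number, with DESeq2 1.42.0, with limma-voom (limma 3.58.1) and on the compared groups alone. It was also repeated without each library in turn and after subtracting the median log2 change of the 50 neighbouring genes. Other members of these gene families and polyadenylation site use were not analysed here. Plots used Python 3.11.15 with pandas 2.3.3 and matplotlib 3.10.9.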

Additional observations from a re-analysis of the deposited data

Results flagged for a closer look

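For 4 of 7 members the 2 knockdowns differed by a direct test (edgeR's quasi-likelihood test, adjusted over all genes), where 24.2% of all genes passed. CFIm68 knockdown minus CFIm25 knockdown on the log2 scale was -0.23 for NRAS, 0.30 for BRAF, 0.22 for ARAF and -0.20 for MAP2K1. The NRAS, ARAF and MAP2K1 calls were each lost without certain single libraries, as given above. For 6 of 7 members the 2 overexpressions differed by the same test, where 63.7% of all genes passed. CFIm68 overexpression minus CFIm25 overexpression was 0.15 for NRAS, 0.66 for HRAS, -0.72 for BRAF, 0.17 for MAP2K1, -0.40 for MAP2K2 and 0.42 for MAPK3. Here too the NRAS and MAP2K1 calls were lost without certain single libraries. With neighbours' medians removed NRAS (0.12) and MAPK3 (0.10) did not pass. Against control BRAF was lower with CFIm68 overexpression (-0.32) and higher with CFIm25 overexpression (0.40), and MAP2K2 was lower with CFIm68 overexpression (-0.22) and higher with CFIm25 overexpression (0.18). With neighbours' medians removed BRAF with CFIm68 overexpression (-0.13, adjusted p = 0.26) did not pass. Nor did MAP2K2 with CFIm68 overexpression (-0.05, adjusted p = 0.66) or CFIm25 overexpression (0.13, adjusted p = 0.1). Both MAP2K2 calls were also lost without certain single libraries.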

How the results depend on the processing

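Of 1685 values under other settings 1590 stayed the same, and of 1244 values with 1 library left out 1090 did. A tested change stayed the same if it kept its direction and its side of the threshold. A count stayed the same if it was within a factor of 1.5 of the main value, and a rank if it was equal. Removing the medians of neighbouring genes turned the direction of HRAS with CFIm25 knockdown (0.03), CFIm68 knockdown (0.07) and CFIm68 overexpression (-0.05), of NRAS (-0.02) and MAP2K1 (-0.03) with CFIm68 overexpression, and of MAP2K2 between the knockdowns (-0.02). It also turned ARAF between the overexpressions (-0.01), and NRAS (0.02), HRAS (0.15) and MAP2K2 (-0.03) between CFIm68 knockdown and CFIm68 overexpression, and SOS1 with CFIm68 overexpression (0.02). Under it 5 members passed with CFIm68 knockdown and 0 with CFIm68 overexpression, where 2397 genes passed in all (3605 without the removal) and 11 pathway genes were lower (18 without it). The cause was not tested. With 1 library left out, the members past the threshold numbered 1 to 2 with CFIm68 overexpression, 2 to 4 between the knockdowns and 3 to 6 between CFIm68 knockdown and CFIm68 overexpression. Genes past the threshold between the knockdowns numbered 1465 to 2384 (lowest without CFIm25 knockdown replicate 1), against 2929 with every library. Pathway genes higher with CFIm25 knockdown numbered 20 to 35, and those lower with CFIm68 overexpression 9 to 19 (lowest without CFIm68 overexpression replicate 2). MAPK3 with CFIm25 knockdown ranged over -0.03 to 0.10, NRAS between CFIm68 knockdown and CFIm68 overexpression over -0.10 to 0.01, and the MAP2K1 to MAP2K2 log2 ratio with overexpression over -0.07 to 0.11.

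Replicate numbers did not pair the samples, since deviations of same-numbered libraries correlated at -0.06 to 0.17. With a replicate block ARAF with CFIm25 knockdown was 0.15 (adjusted p = 0.014) and MAP2K2 between CFIm68 knockdown and CFIm68 overexpression 0.15 (adjusted p = 0.018), both past the threshold. The other member calls were the same. CFIm25 knockdown has 2 libraries, and a fit without one of them assumes that the other varies like the remaining groups.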

Other observations

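Genes with and without TGTA in the annotated 3′ UTR were counted over the whole table, as a description with no test. With CFIm25 knockdown 25.1% of 10231 genes with TGTA were higher and 22.7% lower, and of 1590 genes without it 20.9% were higher and 26.5% lower. With CFIm68 knockdown the shares were 28.7% higher and 27.8% lower with TGTA, and 26.7% and 30.8% without it. With CFIm25 overexpression they were 28.4% and 28.6% with TGTA, and 22.4% and 34.1% without it. With CFIm68 overexpression they were 14.7% and 15.7% with TGTA, and 12.8% and 14.2% without it.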
